A study of Mus musculus with 2 samples.

Results

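The 48 genes described here are the mouse protein-coding genes whose symbols begin with Psma, Psmb, Psmc, Psmd, Psme, Psmf or Psmg, without Psmb8 and Psmb9. They were taken from 21884 protein-coding genes with a unique symbol in the GENCODE M21 annotation and lie on 16 chromosomes. The symbols cover most subunits of the proteasome together with activators, an inhibitor and assembly chaperones. The rule is one of symbols only, so it leaves out Sem1, Adrm1 and Pomp, which are described below with further genes of the pathway. Psmc3ip fits the symbol rule but encodes a protein that binds Psmc3 and is not itself a subunit.

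CTCF occupancy was mapped by sequencing immunoprecipitated chromatin (ChIP-seq) from lung of B6NCrl mouse embryos at day 14.5. There were 2 samples in 1 group, both of powdered lung tissue from several dissections, with males and females pooled. The labels name no treatment and no engineered allele, and the 2 samples share 1 biosample and 1 donor record, so their spread may be technical only. Peak lists hold no expression values, so the identity of the tissue could not be checked against marker genes, and they hold no read counts, so the sequencing depth is unknown. A site is the summit of a peak in the optimal list, the longer of the 2 lists that the authors thresholded by the irreproducible discovery rate (IDR), which ranks peaks by how well replicates repeat them. That list holds 54953 peaks on the mm10 genome. The transcription start site (TSS) is the 5' end of the gene record, and negative offsets lie upstream of it in the direction of transcription. The signal of a site is the peak caller's own value, and its percentile is its rank within the optimal list.

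The proteasome degrades proteins tagged with ubiquitin. Its 20S core is a barrel of stacked rings, in which the outer alpha rings (Psma genes) gate the entrance and the inner beta rings (Psmb genes) carry the proteolytic sites. The 19S regulatory particle caps the barrel: a ring of ATPases (Psmc genes) unfolds substrates and threads them into the core, and non-ATPase subunits (most Psmd genes) bind and remove ubiquitin. CTCF is a zinc finger protein that binds a long GC-rich motif, stops cohesin loop extrusion at many of its sites, and also occupies many promoters.

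CTCF sites lay close to the starts of many 19S genes, more often than in genes of like promoter GC content, whereas the 20S ring genes did not differ from such genes beyond counting error. Within 250 bp of the TSS, 11 of the 17 genes of 19S ATPases and non-ATPases had a site (64.7%, 95% Wilson interval 41.3% to 82.7%), compared with 14.1% of all protein-coding genes and 19.2% in genes of the same promoter GC content. None of the 14 genes of the 20S alpha and beta rings had one (0.0%, upper Wilson limit 21.5%), beside 17.3% in genes of their GC content, which would be 2.42 genes and lies inside that interval. Median GC content within 500 bp of the TSS was 55.7% in the 19S genes and 55.4% in the 20S ring genes, and the median observed over expected CpG ratio was 0.744 and 0.772, so the medians of base composition were close to each other. The median CpG ratio of all protein-coding genes was lower, at 0.552. Matched shares of the 19S and 20S groups were not recomputed with CpG matching or with every transcript start. The shares drew closer with distance, and at 5 kb they were 70.6% (12 of 17) for the 19S genes, beside 55.5% at their GC content, and 57.1% (8 of 14) for the 20S ring genes, beside 52.6%, with 44.8% of all protein-coding genes. Both GC-matched shares lay inside the Wilson intervals at 5 kb. Taking other peak lists changed the 20S count at 250 bp, since Psma7 entered it with the conservative list, with the strongest peaks of the pooled list or with those of replicate 2 alone, and Psma2 and Psma7 with those of replicate 1 alone. Among the strongest 10000 optimal peaks the 1 kb shares were 23.5% in the 19S genes, through Psmc4, Psmc6, Psmd1 and Psmd6, and 0.0% in the 20S ring genes. With those peaks the share of the whole family was 10.4%, only 4.64 points above genes of the same GC content. No GC-matched share was calculated for the 19S and 20S groups with them, so neither group share can be read against a matched number. The 19S and 20S groups were set apart with earlier results of these data known, and the 250 bp distance was not a planned window. Within 1 kb, the window planned for the whole list, the 19S share was also 64.7%, beside 32.7% in genes of their GC content. The 19S excess over GC-matched genes and the difference between the groups are therefore descriptions and were not tested.

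Over all 48 genes, 19 had a site within 1 kb (39.6%, 27.0% to 53.7%). The share was 26.6% in all protein-coding genes and 30.1% in genes of the same promoter GC content, or 14.4 genes of 48. Within 5 kb, 29 had a site (60.4%, 46.3% to 73.0%), beside 44.8% of all protein-coding genes and 51.5% at the same GC content. The shares of all protein-coding genes lay just below these intervals and the GC-matched shares inside them, so over the whole list neither share differed from GC-matched genes beyond its counting error. The excess over GC-matched genes at 1 kb was 9.51 percentage points, but it was 0.698 points when every annotated transcript start was used and 3.81 points with matching on the observed over expected CpG ratio. At 5 kb the excess of 8.90 points became 1.77 points with RefSeq starts and 5.25 points with CpG matching. The intervals cover counting error only, and they treat genes as independent.

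**Figure D1:**
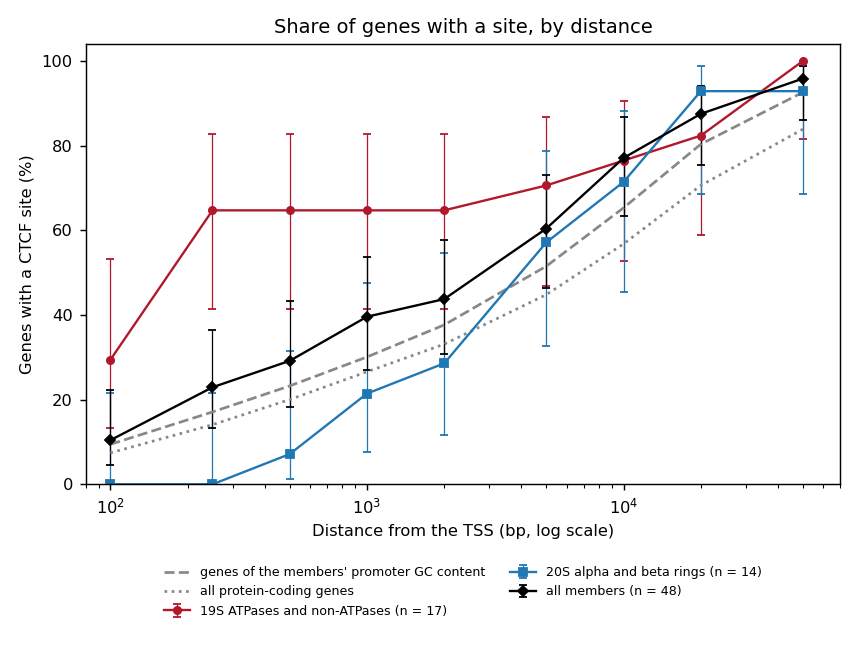
Share of genes with an optimal CTCF site (percent) against distance from the TSS (bp, log scale) for all members, the 19S ATPases and non-ATPases, the 20S alpha and beta rings, all protein-coding genes and genes of the members' GC content; vertical bars are 95% Wilson intervals. The 19S line is flat at 64.7% from 250 bp to 2 kb, while the 20S line starts at 0.0% and reaches 57.1% at 5 kb.

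The strongest promoter site of the family belonged to Psmd6, a non-ATPase subunit of the 19S lid. Its summit lay 24 bp upstream of the TSS (chr14:14121008), in sequence annotated as intergenic. The signal was 369.2, rank 870 of the optimal list, with 207.0 in replicate 1 and 164.9 in replicate 2. Next came Psmc6, one of the ATPases, with a site 171 bp upstream (chr14:45329617), a signal of 319.2, and replicate signals of 173.1 and 148.2. The ATPase gene Psmc4 had a site 208 bp upstream (chr7:28050309) with a signal of 200.2 and replicate signals of 109.9 and 91.2. Replicate 1 was the higher in each of these, as at 15 of the 19 promoter sites of the family within 1 kb. The promoters are printed because they show where the match to the CTCF motif lies relative to the TSS. They come from the RefSeq promoter table (GRCm38.p6, the chromosomes of mm10) and end just before the GENCODE first exon, so the 39, 36 and 9 bases up to the RefSeq start of Psmd6, Psmc6 and Psmc4 are not shown. They run 5' to 3' on the strand of the gene, with the motif match in capitals. They cover chr14:14120985-14121195 on the minus strand for Psmd6, chr14:45329574-45329787 on the plus strand for Psmc6, and chr7:28050102-28050342 on the minus strand for Psmc4.
Psmd6: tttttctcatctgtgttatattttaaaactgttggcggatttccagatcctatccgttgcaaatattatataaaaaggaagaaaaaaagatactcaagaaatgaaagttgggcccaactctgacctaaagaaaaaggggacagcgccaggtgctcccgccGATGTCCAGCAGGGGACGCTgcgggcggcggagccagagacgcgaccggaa
Psmc6: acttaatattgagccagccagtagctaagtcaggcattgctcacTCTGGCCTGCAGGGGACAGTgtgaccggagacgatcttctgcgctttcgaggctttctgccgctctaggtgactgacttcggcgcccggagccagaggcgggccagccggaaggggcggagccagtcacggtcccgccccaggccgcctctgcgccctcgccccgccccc
Psmc4: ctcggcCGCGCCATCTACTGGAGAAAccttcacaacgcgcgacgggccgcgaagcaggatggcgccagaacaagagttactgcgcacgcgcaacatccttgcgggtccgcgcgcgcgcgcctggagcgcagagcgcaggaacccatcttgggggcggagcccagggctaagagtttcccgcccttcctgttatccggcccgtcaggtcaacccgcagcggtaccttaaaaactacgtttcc

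The motif is a matrix 20 bases wide, learned from 3000 strong optimal sites away from the family, and its consensus is TGTGGCCACCAGGGGGCGCT. Of the 19 promoter sites of the family 8 held a match no more than 50 bp from the summit (42.1%, 23.1% to 63.7%), compared with 30.3% of the promoter sites of all protein-coding genes and 60.3% of all optimal sites. The threshold let 1% of shifted windows pass. With a threshold passed by 0.1% of them, 0 of the 19 held a match, beside 5.60% of all promoter sites. With one passed by 0.1% of shifted windows away from other sites, 3 of the 19 remained (15.8%), beside 14.99% of all promoter sites. Among the 12 family sites above the median signal of the optimal list 8 held the motif (66.7%, and 49.1% at the promoters of all protein-coding genes), and among the 7 at or below it none did (14.1% at all promoters). The matches of 6 genes are printed with 5 flanking bases on each side, because they show how far each departs from the consensus. Their capitals span chr14:14121016-14121035 (minus strand, Psmd6), chr14:45329618-45329637 (plus, Psmc6), chr7:28050317-28050336 (plus, Psmc4), chr11:80428463-80428482 (plus, Psmd11), chr7:114276680-114276699 (plus, Psma1) and chr5:139827789-139827808 (plus, Psmg3), read 5' to 3' on the strand of the motif.
Psmd6: ccgccGATGTCCAGCAGGGGACGCTgcggg
Psmc6: ctcacTCTGGCCTGCAGGGGACAGTgtgac
Psmc4: gaaggTTTCTCCAGTAGATGGCGCGgccga
Psmd11: cttcaGATGGCCGCGAGATGGCGATggggg
Psma1: gtagaTTAGGCCACTAGGGGGAAGGtgcga
Psmg3: cccacAGAGGCCAGAAGAGGGTGTTgtgtt

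The motif lay on the same strand as the gene at Psmd6, Psmc6 and Psmd11 and on the opposite strand at Psmc4, Psma1, Psmg3, Psmd3 and Psmg2. That is 3 of 8 on the strand of the gene (37.5%), beside 59.8% of motif-bearing promoter sites of all protein-coding genes. For Psmc4 the match therefore reads as its reverse complement in the promoter printed above.

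Among the 19S ATPases, which form the ring that unfolds substrates, Psmc4, Psmc5 and Psmc6 had a site within 1 kb. The Psmc5 site lay 209 bp downstream of the TSS, in an intron, with a signal of 58.3, replicate signals of 33.7 and 23.4, and no motif match. Psmc1 had a motif-bearing site 3661 bp upstream with a signal of 244.8, and Psmc2 and Psmc3 had none within 5 kb. The ATPases thus held 3 sites among 6 genes at 1 kb, where genes of their GC content would give 1.76.

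The 19S non-ATPases held 8 sites among 11 genes, where 3.79 would be the number at their GC content. Psmd1, a large scaffold subunit of the base, had a site 56 bp upstream of the TSS (chr1:86064331) with a signal of 231.5, replicate signals of 127.5 and 103.6, and no motif match. A further site of Psmd1, 4746 bp upstream, held the motif and had a slightly higher signal. Psmd2, the other large scaffold, had its site 7 bp downstream of the TSS, within the annotated UTR, with a signal of 36.3 and replicate signals of 18.0 and 19.6. The lid subunit Psmd11 had a site 140 bp upstream (chr11:80428475) with a signal of 169.4 and replicate signals of 85.3 and 83.9. These are sites of very different strength at like positions, from the 31.5th percentile at Psmd2 to the 98.4th at Psmd6.

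The other lid genes with a site had weaker ones. Psmd7, the partner of the deubiquitinase Psmd14, had a site 58 bp upstream (chr8:107588522) with a signal of 119.8 and replicate signals of 62.1 and 56.1. At Psmd8 the site lay 114 bp upstream (chr7:29180815), with a signal of 92.9 and replicate signals of 55.3 and 36.3. Psmd3 had a motif-bearing site 207 bp upstream, with a signal of 73.5 and replicate signals of 43.9 and 29.1. The Psmd12 site, 11 bp downstream of the TSS in the UTR, differed most between the replicates: its signal of 40.2 went with 36.8 in replicate 1 and 5.38 in replicate 2, and the conservative IDR list left it out. The 19S genes without any site within 5 kb included Psmd4, a ubiquitin receptor, Psmd13, and Psmd14, the deubiquitinase of the lid, whose nearest site lay 43237 bp away.

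**Figure D2:**
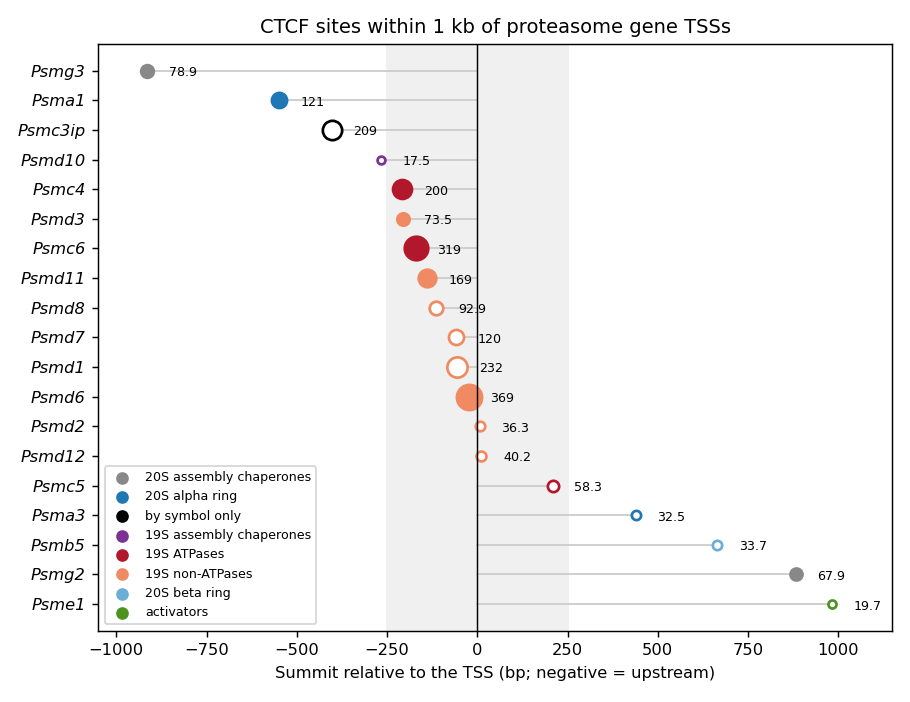
Each member's site within 1 kb of the TSS by signed offset (bp, negative upstream), 1 gene to a line, with colours for the role of the gene product, marker size and the printed value for the peak signal, filled and open markers for sites with and without the CTCF motif, and a grey band for 250 bp on either side. The 11 sites of 19S ATPases and non-ATPases all lie within 250 bp of the TSS, and those of the 20S ring genes lie between 439 and 665 bp from it.

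The 20S rings had 3 promoter sites within 1 kb among 14 genes (21.4%, 7.57% to 47.6%), beside 31.0% in genes of their GC content. Psma1, an alpha-ring gene, had the strongest, 549 bp upstream (chr7:114276667), with a signal of 120.9, replicate signals of 61.6 and 62.1, and a motif match on the opposite strand. The Psma3 site lay 439 bp downstream of the TSS in an intron, with a signal of 32.5 and replicate signals of 17.6 and 13.1, and a stronger site of signal 150.8 lay 4673 bp upstream. Psmb5, which encodes the chymotrypsin-like catalytic subunit, had a site 665 bp downstream in an intron with a signal of 33.7 and replicate signals of 10.1 and 20.2. The TSS nearest to that site was that of Mir686, at 572 bp, and the same site was the one counted for Psmb11 at 5 kb, 4076 bp upstream of it. Neither Psmb6 nor Psmb7, the other catalytic beta-ring genes of the constitutive core, had a site within 1 kb.

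Several 20S ring genes had a motif-bearing site a few kilobases away. Psma7 had one 3105 bp upstream, in an intron of the divergent gene Ss18l1, with a signal of 153.2. Psmb7 had one 2029 bp upstream with a signal of 161.4, and Psmb4 one 1810 bp upstream with a signal of 92.4. Psma6 had one 4530 bp downstream with a signal of 49.0, whereas the Psmb3 site, 4408 bp upstream in an intron of Pcgf2, held no match and had a signal of 92.5. The median distance to the nearest site was 4469 bp in the 20S ring genes, 207 bp in the 19S genes and 6715 bp in all protein-coding genes. Psma2, Psma4, Psma5, Psmb1, Psmb2 and Psmb6 had no site within 5 kb, and the nearest to Psma4 lay 53464 bp away. Of the genes for alternative core subunits, Psma8 of the testis, Psmb10 of the immunoproteasome and Psmb11 of the thymus, none had a site within 1 kb.

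**Figure D3:**
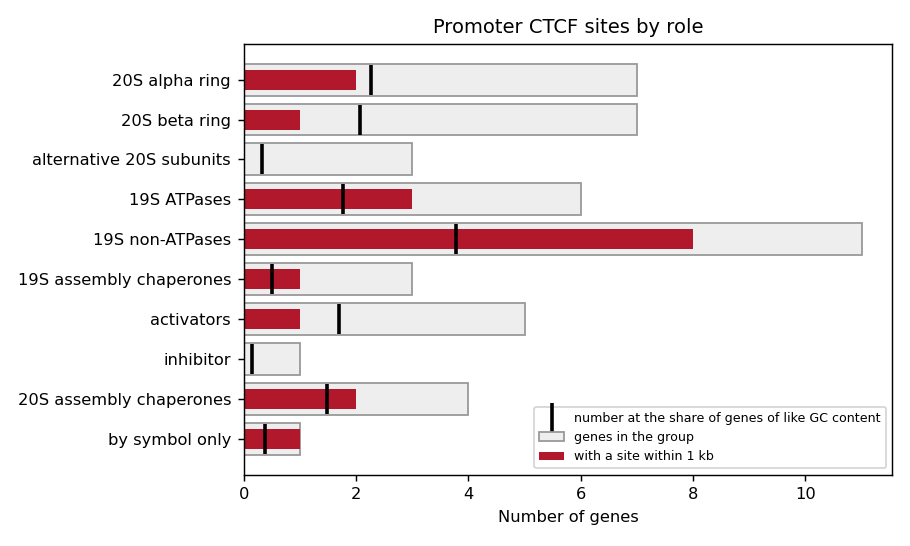
Number of genes in each role group (grey outline), number with a site within 1 kb of the TSS (red) and number at the share of genes of like GC content (black mark). The 19S non-ATPases have 8 of 11 where the mark stands at 3.79, and the 20S beta ring has 1 of 7 where it stands at 2.06.

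The 17 genes of the other roles had 5 sites within 1 kb (29.4%, near the 26.6% of all protein-coding genes), where genes of their GC content would give 4.55. None of these lay within 250 bp, beside 14.1% of all protein-coding genes. Of the chaperones that assemble the 19S base, Psmd10 (gankyrin) had a site 267 bp upstream on chromosome X, Psmd9 had one 2339 bp downstream, and Psmd5 had none within 5 kb. The Psmd10 signal of 17.5 was the lowest of the 19, with replicate signals of 6.23 and 11.0, and the summit lay 88 bp from the TSS of the divergent autophagy gene Atg4a. The Psmd9 site had a signal of 394.6, rank 491 and a motif match, but the GENCODE gene record of Psmd9 starts 58777 bp from the RefSeq start, so its position relative to the promoter depends on the annotation. Of the 20S assembly chaperones, Psmg3 had a site 915 bp upstream (chr5:139827800) with a signal of 78.9 and replicate signals of 45.6 and 33.3. Psmg2 had one 882 bp downstream in an intron with a signal of 67.9 and replicate signals of 38.1 and 28.1. Psmg1 and Psmg4 had none within 5 kb.

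Of the activators, which open the core without the 19S particle, Psme1 alone had a site within 1 kb, 983 bp downstream in an intron, with a signal of 19.7 and replicate signals of 10.1 and 7.72, and a stronger, motif-bearing one of signal 51.4 lay 4336 bp downstream. The 983 bp site sat just inside the limit, after Psmg3 at 915 bp and Psmg2 at 882 bp, and the sites just outside were those of Psme3 at 1407 bp, Psmb4 at 1810 bp and Psmb7 at 2029 bp. The Psme3 site had a signal of 22.7 and was not listed in replicate 1. Psme2, Psme2b and Psme4 had none within 5 kb, and the nearest sites lay 71542 bp from Psme2b and 27978 bp from Psme4. Psmf1, which encodes an inhibitor of the core, had a motif-bearing site 4303 bp upstream with a signal of 214.9. The RefSeq start of Psmf1 lies 2876 bp from the GENCODE one and that of Psmb11 3877 bp, and with RefSeq starts Psmf1, Psmb11 and Psmd9 had no site within 5 kb. Psmc3ip had a site 403 bp upstream (chr11:101095839) with a signal of 209.2, replicate signals of 118.1 and 91.9, and no motif match.

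All 19 promoter sites had a peak in both replicate lists within 50 bp of the summit, and 16 were in the conservative list. Psmb5, Psmd10 and Psmd12 were the 3 that were not. The optimal list was itself made from these replicates, and each replicate list holds 300000 peaks, so a match in both was likely for any site. The conservative list holds 53112 peaks, beside 54953 in the optimal list. Neither count was made for all optimal sites or for the promoter sites of all genes. Further lists took as many of the strongest peaks of 1 replicate alone as the optimal list holds. Psme1 then had no site within 1 kb with either replicate, Psmd12 none with replicate 2, and Psmb5 and Psmd10 none with replicate 1. Psma7 and Psmg1 then had one with either replicate, and Psma2 with replicate 1. The ratio of replicate 1 to replicate 2 signal ran from 0.503 at Psmb5 to 6.84 at Psmd12, with a median of 1.26, and the lists are not scaled to each other. Within each replicate's own list the percentiles of a site lay 0.821 points apart at the median and 20.3 points apart at most, at Psmd12. The median percentile of the family sites in the optimal list was 56.97 (interval 31.5 to 82.8), beside 46.4 for the promoter sites of all protein-coding genes. The median distance of the family sites from the TSS was 208 bp (interval 58 to 549 bp), beside 262 bp. Both medians of all promoter sites lay inside these intervals. Of the 19 family sites 12 lay upstream (63.2%, beside 55.5%).

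**Figure D4:**
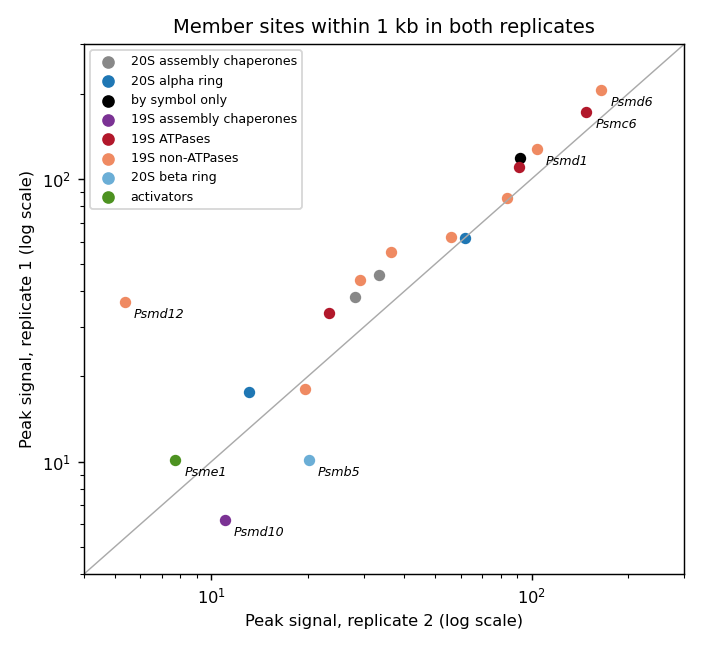
Peak signal of each member's site within 1 kb in replicate 1 and replicate 2 (log axes, unscaled values from each replicate's own list), with the line of equal signal. Most sites lie near the line and Psmd12 stands farthest from it, at 36.8 in replicate 1 and 5.38 in replicate 2.

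Of the 29 members without an optimal site within 1 kb, 22 had a peak there in the long list from pooled reads (75.9%), beside 48.3% of protein-coding genes without one. Peaks were listed in both replicates for 14 of the 29 (48.3%, beside 32.6%). Neither comparison share was matched on promoter GC content. The highest pooled signals among the 29 members were 26.3 at Psmg1, 720 bp upstream, and 25.8 at Psma7, 131 bp upstream. Psmd13 followed with 17.6 at 413 bp downstream and Psma2 with 17.3 at 125 bp upstream. The pooled and replicate lists hold 300000 peaks each, so a peak in them is in general a weaker statement than a site in the optimal list. By signal, however, the pooled peaks of Psmg1 and Psma7 stood above the counted sites of Psme1 (19.7) and Psmd10 (17.5).

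A divergent protein-coding gene started within 1 kb of 8 of the family's promoters (16.7%, beside 6.77% of all protein-coding genes). Psmc5 with Ftsj3, Psmd10 with Atg4a and Psmg2 with Cep76 had a CTCF site within 1 kb, whereas Psma2 with Mrpl32, Psma7 with Ss18l1, Psmb1 with Tbp, Psmc2 with Dnajc2 and Psme2 with Rnf31 did not. That is 3 of 8, next to 16 of 40 for the members without such a partner. Over all protein-coding genes the shares were 40.2% with a divergent partner and 25.6% without one.

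The shares of some promoter letters also differed between the 19S genes and the 20S rings. Several sets of letters were searched, in groups chosen with earlier results known, so these differences are descriptions and were not tested. The letters were searched on both strands from 250 bp before to 50 bp after the TSS. CCGGAAG, the core bound by ETS factors, was present in 10 of the 17 19S genes (58.8%) and in none of the 14 20S ring genes, beside 35.4% of all 48 (17 genes) and 10.8% of all protein-coding genes. In genes of the members' GC content the share was 13.6%. The genes with it were Psma8, Psmc1, Psmc2, Psmc3, Psmc3ip, Psmc6, Psmd2, Psmd4, Psmd6, Psmd7, Psmd11, Psmd12, Psme2b, Psme3, Psme4, Psmg1 and Psmg3.

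CTCF sites occurred in 19S genes with and without these letters. Of the 10 with CCGGAAG 6 had a site within 1 kb, and of the 7 without it 5 had one. Over all protein-coding genes the share with a site was 38.4% with the letters (905 of 2356) and 25.2% without. A match is a description of the letters only.

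The other letters were distributed differently. TGANNNNGC, the core of the antioxidant response element read by Nfe2l1 and Nfe2l2, was in 9 of 14 20S ring genes (64.3%) and 4 of 17 19S genes (23.5%), beside 41.7% of the 48 and 40.8% of all protein-coding genes. Genes of like GC content gave 42.8% for the 20S ring genes and 43.6% for the 19S genes, and no interval was calculated. CCAAT, bound by NF-Y, was in 8 of the 20S ring genes (57.1%) and 6 of the 19S genes, beside 39.6% of the 48 and 39.1% of all. AAGATGG, a core of the YY1 motif, was in 8 of the 48 (16.7%, beside 6.22%), among them 4 19S and 3 20S ring genes. TATAAA was in 4 of the 48 (8.33%, beside 12.7%). AAGATGG overlaps the CTCF motif in part. Its last letters, AGATGG, fall on positions 11 to 16 of the matrix, where A at position 13 and T at position 14 come second to G. Their shares there are 0.404 (G 0.595) and 0.382 (G 0.599). At position 10 A has a share of only 0.110. None of the letter sets occurs in the consensus.

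**Figure D5:**
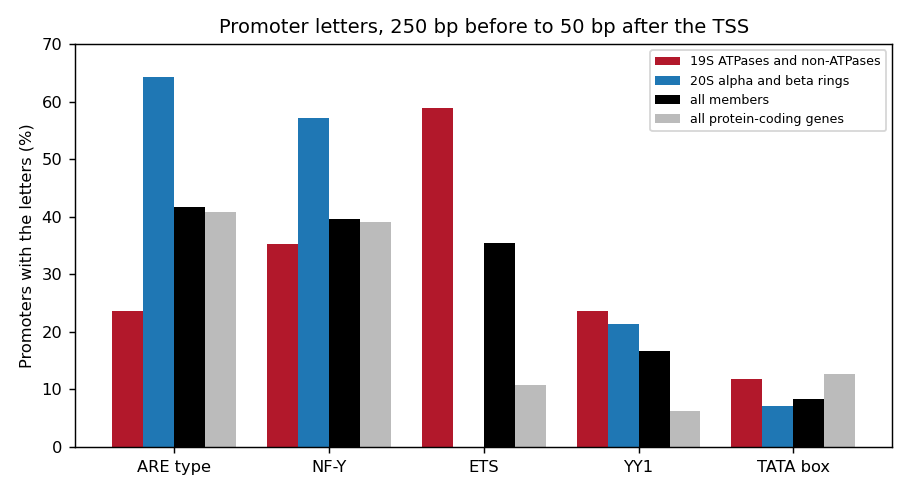
Share of promoters (percent, 250 bp before to 50 bp after the TSS, both strands) that hold each set of letters in the 19S ATPase and non-ATPase genes, the 20S ring genes, all members and all protein-coding genes. The ETS core stands at 58.8% in the 19S genes and at 0.0% in the 20S ring genes, and the antioxidant response element core at 23.5% and 64.3%.

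Of 26 further genes of the ubiquitin and proteasome pathway 25 were matched by symbol, and 11 of these had a site within 1 kb (44.0%, beside 35.7% in genes of their GC content). Within 5 kb it was 13 (52.0%, beside 56.4%). Cofactors of the particle led by signal: Uchl5, a deubiquitinase of the 19S particle, had a site 112 bp upstream with a signal of 257.0, and Fbxo7, an F-box protein that binds Psmf1, one 124 bp upstream with 239.9. Adrm1, the ubiquitin receptor that anchors Uchl5, had a site 124 bp upstream with a signal of 195.7. Sites that near to the TSS were not particular to the cofactors: those of Ubqln1, Uba6 and Ubqln4 lay 46, 100 and 103 bp upstream. Pomp, the maturation factor of the 20S core, and Sem1, a small 19S subunit, had none within 5 kb. Adrm1 and Sem1 were not counted among the 19S genes above, because the symbol rule leaves them out. The shuttle factor gene Ubqln4 had its site with a signal of 98.9. Vcp, the unfoldase that hands substrates to the proteasome, had one 540 bp downstream with 57.6, and Nfe2l1, the transcription factor that raises proteasome gene expression, one 523 bp downstream with 49.7. The other genes with a site within 1 kb were Ube3c, Ubqln1, Rad23b, Rps27a and Uba6, with signals from 18.7 to 46.4.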

How the data were processed

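CTCF ChIP-seq of 2 samples in 1 group was used as narrowPeak lists on mm10. Per the deposited README files, each replicate list came from that replicate's alignments and 1 control file, the pooled list from both, and the IDR lists from these. The aligner, peak caller and IDR settings were not given in the sources used here. Deposited signal values are those of the peak caller, not scaled between lists, and were ranked within each list. Other value columns were not used.

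Summits on the chromosomes were set against the 5' ends of GENCODE M21 protein-coding genes, and the strongest site in a window was taken. GC-matched shares are the mean, over members, of the share in each member's bin of 20 equal-sized bins of GC content within 500 bp of the TSS, members left out. The CTCF matrix was grown from a 9-base seed on odd-numbered autosomes, with 34 sites near members left out. Shares have 95% Wilson intervals. The calculations were tested on simulated data. The tools were pandas 2.3.3, numpy 2.4.6, matplotlib 3.10.9 and scipy 1.17.1 under Python 3.11.15. RefSeq promoter entries were matched for 40 of 48 members by symbol.

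Every member is accounted for. The rule for genes given in full took the 10 with the strongest site within 1 kb and the 3 on each side of that limit, and for sequences the strongest members with a motif. Psmd9, whose start differs between annotations, was singled out after its values were seen. The members, lists and role groups were chosen with earlier results of these data known. Alternatives varied the peak list, the replicate, the TSS, the window, the GC matching and the motif threshold.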

Additional observations from a re-analysis of the deposited data

How the results depend on the processing

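Of 82 alternatives, 75 moved a value by less than its counting interval or kept it, 7 moved it further and 0 reversed it. Only the excesses over GC-matched genes have a sign, so no other value could be counted as reversed. The intervals are wide, and a fall of the 1 kb excess from 9.51 to 0.698 points stayed inside its own. The excess over GC-matched genes ran from 0.698 to 11.5 points at 1 kb and from 1.77 to 11.1 points at 5 kb. Restricting the sites to the strongest 10000 optimal peaks gave a 1 kb share of 10.4% and a 5 kb share of 16.7%. The excess over GC-matched genes was then 4.64 points at 1 kb and 3.79 points at 5 kb. The 19S share was 23.5% at 250 bp and 23.5% at 1 kb, and the 20S ring share was 0.0% at 1 kb. No GC-matched share was calculated for these groups with those peaks. The motif share was 0.0% with a threshold passed by 0.1% of shifted windows and 15.8% when those windows lay away from other sites, the latter chosen after seeing the data, as were the RefSeq starts and the alternatives of the 19S and 20S shares. Using the strongest peaks of 1 replicate alone gave a 1 kb share of 39.6% with either, a 5 kb share of 60.4% to 62.5%, an excess over GC-matched genes of 8.66 to 8.84 points at 1 kb and of 8.66 to 10.6 points at 5 kb, a 19S share of 58.8% to 64.7% at both 250 bp and 1 kb, and a 20S ring share of 7.14% to 14.3% at 250 bp and 28.6% with either at 1 kb. With the conservative list Psma7, Psmd13 and Psmg1 gained a 1 kb site, Psmb5, Psmd10 and Psmd12 lost it, and 16 members kept it. No members share a promoter, so counting such members once changed nothing. Each promoter site was the only site of its gene within 1 kb, so taking the nearest site could change nothing either. Both kinds of alternative are counted among the 75. No paired analysis was possible because the series has 1 group. Depth could not be weighed, since the lists hold no read counts.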
